A study of Mus musculus with 4 samples.

Results

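The genes described here are 10 genes of the NF-kB system, 5 that encode the DNA-binding REL subunits (Rela, Nfkb1, Rel, Relb and Nfkb2) and 5 that encode inhibitors or modulators of the pathway (Nfkbia, Nfkbie, Nfkbiz, Bcl3 and Tnfaip3). They were selected by gene symbol, through the Ensembl identifier of each row, and they are 10 of the 55421 genes listed for every library. The choice was made with the levels of these same libraries with and without FGF2 known, so their own changes, and the calls of the fit for them, are a description from which no inference is drawn, and no p-value is given for them. Fibroblast growth factor 2 (FGF2) is a protein that is often added to neural cultures, and the study asked how it alters the RNA of cultured prefrontal cortex (PFC). Wild-type C57BL/6 mouse PFC of postnatal day 0 was dissociated and cultured for 10 days, and 2 libraries came from cultures given FGF2 at 5 ng/mL and 2 from cultures with no FGF2. All 4 libraries thus share strain, genotype, tissue and time, and by their labels differ in the factor alone. The libraries are called replicates 1 and 2 after the numbers in their titles, and nothing in the labels says that they came from separate cultures. The study's methods describe the replicates as technical for all samples other than certain human ones, and these cultures are not named as an exception, so every SD and p-value may cover technical spread only.

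NF-kB is a family of dimeric transcription factors that waits in the cytoplasm, bound by inhibitor proteins of the IkB family. Signals from cytokine and Toll-like receptors activate the IKK kinases, which mark the IkB proteins for destruction and let the dimers enter the nucleus. Several of the genes that NF-kB switches on encode its own inhibitors and subunits, and in the brain the pathway is best known from the inflammatory response of astrocytes and microglia.

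Bases near RefSeq gene starts are shown because the family is known to act at kB sites. Whether such sites had a part in the changes was not tested. RefSeq promoter windows of GRCm38.p6, from 250 bases before to 50 bases after each gene start, were matched for 7 of the 10 genes, in 10 windows, while Nfkb1, Relb and Nfkbiz had none. Capitals mark each match to the kB consensus on either strand, and every sequence runs along the strand of its gene.
Nfkbia, chr12:55492648-55492767, minus strand: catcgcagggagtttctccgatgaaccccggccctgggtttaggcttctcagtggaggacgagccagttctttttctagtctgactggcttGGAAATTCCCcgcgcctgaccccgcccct
Nfkbie, chr17:45555529-45555648, plus strand: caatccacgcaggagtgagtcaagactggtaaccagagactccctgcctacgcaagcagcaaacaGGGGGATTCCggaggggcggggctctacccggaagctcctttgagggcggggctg
Tnfaip3, chr10:19015410-19015560, minus strand: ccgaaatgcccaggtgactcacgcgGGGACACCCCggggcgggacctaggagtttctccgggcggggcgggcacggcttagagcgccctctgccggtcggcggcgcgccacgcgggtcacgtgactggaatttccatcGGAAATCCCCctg
Bcl3, chr7:19822741-19822860, minus strand: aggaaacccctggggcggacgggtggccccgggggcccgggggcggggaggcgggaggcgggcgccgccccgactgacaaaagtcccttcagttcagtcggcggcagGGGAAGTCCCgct
Nfkb2, start 1, chr19:46304689-46304718, plus strand: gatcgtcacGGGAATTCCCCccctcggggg
Nfkb2, start 3, chr19:46305680-46305721, plus strand: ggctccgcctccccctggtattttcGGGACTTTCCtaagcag
Rel, chr11:23771007-23771126, minus strand: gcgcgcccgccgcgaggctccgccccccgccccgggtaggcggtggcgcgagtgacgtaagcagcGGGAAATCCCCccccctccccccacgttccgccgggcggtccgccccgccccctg
Rela, chr19:5637363-5637482, plus strand: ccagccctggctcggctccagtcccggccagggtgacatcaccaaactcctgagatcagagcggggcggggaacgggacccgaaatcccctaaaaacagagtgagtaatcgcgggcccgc
The stretches of Nfkbia, Nfkbie, Rel and Rela lie upstream of the annotated transcripts. The Tnfaip3 stretch and both Nfkb2 stretches lie wholly within the gene positions given below, since the RefSeq starts used are inside them. In an annotated UTR of the gene lie 30 bases of the Bcl3 stretch, 14 of the Tnfaip3 stretch, all 30 of the first and 26 of the second Nfkb2 stretch.

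A kB consensus match was present in 6 of the 7 genes with a window, against 8.46% of all 32851 windows and 9.55% of the 27025 genes they belong to. Rela was the member with a window and no match, which says only that these letters are not in that window. The match of Bcl3 began at base 3 after the gene start, so that 5 of the 7 genes remained when only bases before the start were searched. In that search 7.25% of all windows held a match, and the share of genes was not computed. In Nfkb2 and Rel a pair of matches overlapped by all but 1 base, and Tnfaip3 held separate matches at -125 and -12 from the first of its starts. The AP-1 motif TGANTCA was found in 3 of the 7 genes (Nfkb2, Nfkbie and Tnfaip3), and in 7.81% of all windows and 8.97% of all genes. The STAT motif TTCNNNGAA was found in Nfkb2, and in 8.3% of windows and 9.55% of genes. The ETS motif CCGGAAG, bound by a family of factors that growth factor signalling acts on, was found in Nfkbie. It stood in 8.86% of windows and 9.93% of genes. The GC box GGGCGG was found in all 7 genes, and in 35.7% of windows and 38.2% of genes. All motifs were searched on both strands, and a match is a description of the letters, not a site shown to be bound.

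**Figure D1:**
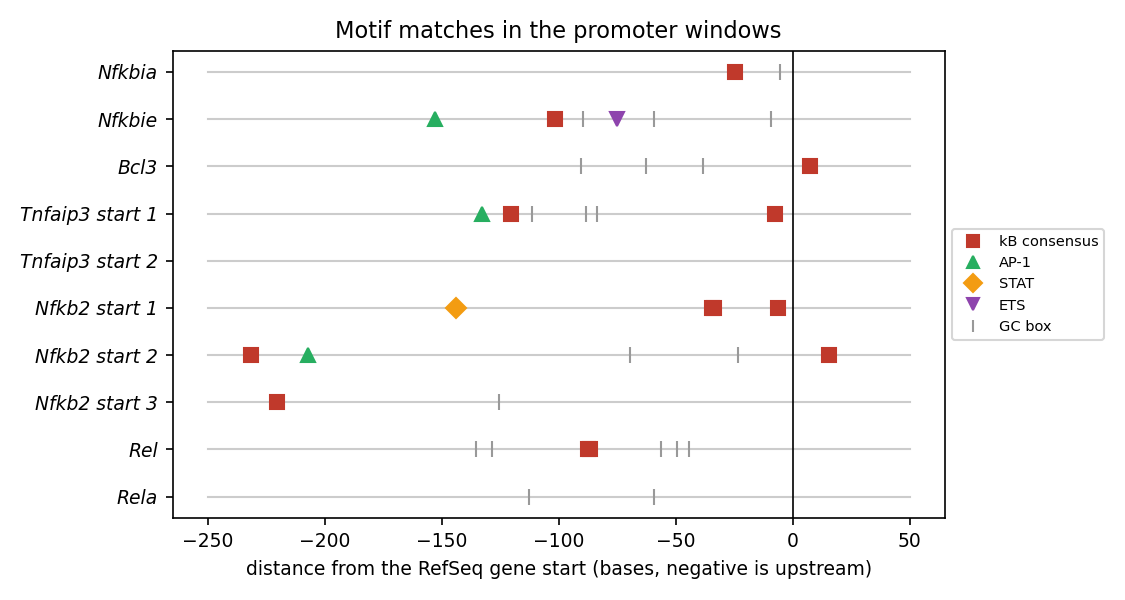
Positions of the motif matches in the promoter windows of the 7 members that have one, in bases from the gene start (0 on the axis), with 1 line for each of the 10 windows. Red squares are kB consensus matches, which stand in 8 of the 10 windows and in every gene except Rela. Nfkb2 has overlapping windows, so its match at 11 in a window and at -225 in the next is the same stretch.

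Counts on genes totalled between 9166432 and 10799886 in a library, which puts the limit that a count of 0 allows (3 counts in a library) at 0.278 to 0.327 CPM (counts normalized to library size). Of the 17144 genes tested with the quasi-likelihood test of edgeR, 20.7% were called higher and 19.9% lower with FGF2 at an adjusted p-value threshold of 0.05, and the median log2 fold change was -0.001. All 10 neuron markers passed the filter on low counts, with a summed level of 3148 to 4445 CPM. Cell type markers moved with FGF2. Of the astrocyte markers, 7 of 8 were called higher, with a summed level of 12100 and 11980 CPM with FGF2 and 7277 and 7229 without. Of the oligodendrocyte lineage markers, 7 of 8 were called higher (1501 and 1506 against 426 and 434 CPM), whereas 8 of 10 neuron markers were called lower. Of 10 microglia and macrophage markers, 6 passed the filter and 4 were called higher, and none was at 0 in all libraries. Their summed level was only 19.5 and 23.4 CPM with FGF2 and 9.4 and 10.3 without. Among the defining markers, Csf1r had 49, 52, 21 and 21 counts and Ptprc 21, 28, 3 and 10 in FGF2 replicates 1 and 2 and no FGF2 replicates 1 and 2, while Cx3cr1 had 24, 37, 17 and 13 and P2ry12 only 7, 5, 3 and 5. Endothelial markers summed to 4.94 to 9.89 CPM (1 called higher and 1 lower of 3 tested, Cldn5 at 0 in all libraries), and fibroblast and mural markers to 50.1 to 66.2 CPM (2 higher and 2 lower of 6 tested). The part of cell composition in the values below was not tested, and in bulk RNA a change in the number of cells of a type and a change in RNA per cell cannot be told apart.

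All 10 members were called higher with FGF2, beside the 20.7% of tested genes with that call. Since the genes were chosen on this contrast, nothing is read from that count. All 10 also had both libraries with FGF2 above both without, which was so for 33.6% of tested genes, and 8 of the 10 had a log2 fold change over 1 as well as the call, which was so for 5.22%. All 10 passed the filter on low counts, Bcl3 only through the libraries with FGF2. The inhibitors had the larger changes, with log2 fold changes from 2.53 to 6.69 (median 3.05), and the subunits the smaller ones, from 0.97 to 2.04 (median 1.35). The ranges of these 5 inhibitors and the 5 subunits did not overlap. This holds for the listed genes only. The IkB genes Nfkbib and Nfkbid, which are not members, had log2 fold changes of 0.83 and -0.04, below those of all subunits. The place of Nfkbib is not firm. Without no FGF2 replicate 1 Nfkbib was at 0.72 and Rel at 0.63, and without no FGF2 replicate 2 Nfkbib was at 0.95 and Rela at 0.92.

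**Figure D2:**
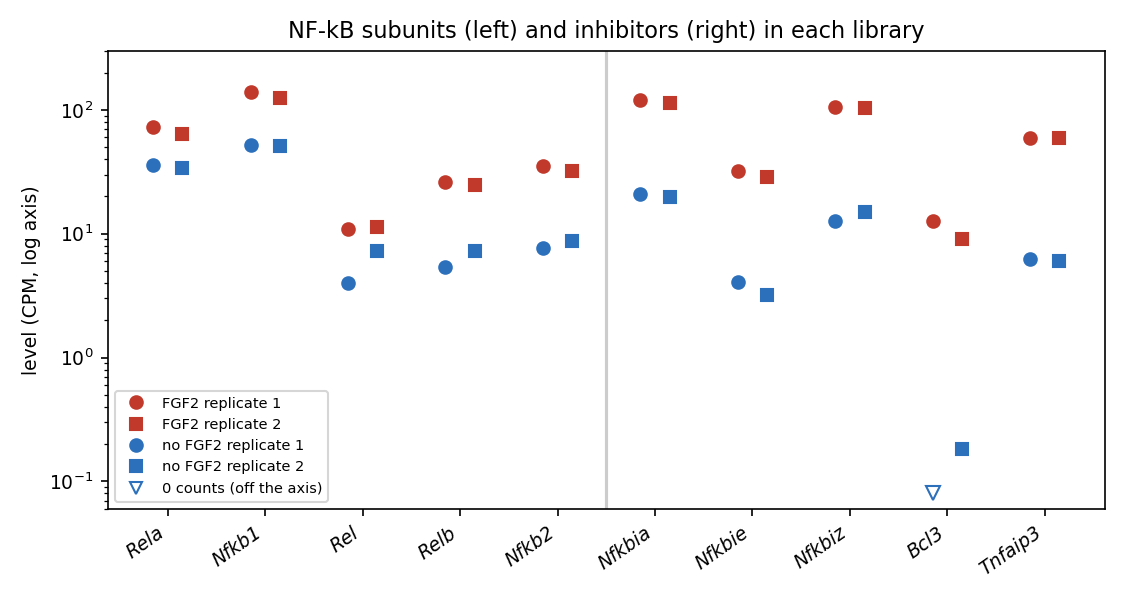
Level of each member in each of the 4 libraries, in CPM on a log axis, with subunits on the left and inhibitors on the right of the grey line. For every member both red points (FGF2) lie above both blue points (no FGF2), and the open triangle marks the library in which Bcl3 had 0 counts.

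Rela (ENSMUSG00000024927) encodes the main activating subunit and lies on the plus strand of chromosome 19 from 5637483 to 5648130 (mm10, as are all gene positions here). It had 73.1 and 63.9 CPM in FGF2 replicates 1 and 2 and 36.1 and 33.6 CPM in no FGF2 replicates 1 and 2. Rela thus had the smallest change of the 10 genes, 1.97-fold (log2 fold change 0.97, standard error 0.09), though it was not separated from Rel by more than 2 combined standard errors, and it ranked 1040 of the 17144 tested genes from the largest rise down.

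Nfkb1 (ENSMUSG00000028163), on the minus strand of chromosome 3 from 135584655 to 135691547, encodes a precursor that is processed to the usual partner of Rela. Its level was 139 and 124 CPM with FGF2 and 52.2 and 51.3 CPM without, a 2.55-fold difference (log2 fold change 1.35, standard error 0.07). In CPM it was the most abundant member. Its exons, merged over all annotated transcripts, span 12061 bases, and per kilobase of that length it stood below Rela in both conditions. The order of Nfkb1 and Rela thus depends on the length used.

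Rel (ENSMUSG00000020275), which encodes c-Rel, a subunit best known from lymphoid and myeloid cells, is on the minus strand of chromosome 11 from 23736847 to 23770970. Its level was 10.9 and 11.4 CPM with FGF2 and 3.99 and 7.19 CPM without. The groups did not overlap, but the libraries without FGF2 differed from each other by 57.3% of their mean (42 and 78 counts). The fold of the means was 1.99 and the log2 fold change 0.99 (standard error 0.21). Without no FGF2 replicate 1 the log2 fold change was 0.63 and Rel was no longer called, and without no FGF2 replicate 2 it was 1.47.

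The subunits of the non-canonical branch had larger changes. Relb (ENSMUSG00000002983), on the minus strand of chromosome 7 from 19606217 to 19629438, had 26.3 and 24.8 CPM with FGF2 and 5.41 and 7.19 CPM without, 4.06-fold (log2 fold change 2.02, standard error 0.17). Nfkb2 (ENSMUSG00000025225), whose precursor protein is processed to the partner of RelB, is on the plus strand of chromosome 19 from 46304320 to 46312385. It had 35.2 and 32.3 CPM with FGF2 and 7.69 and 8.66 CPM without, 4.12-fold (log2 fold change 2.04, standard error 0.15). The 2 genes differed in log2 fold change by only 0.03 with a combined standard error of 0.22, while Relb exceeded Nfkb1 by 0.67 with a combined standard error of 0.18. The exons of Nfkb2 overlap those of Psd and of a noncoding gene on the opposite strand over 830 bases in all, and the strand setting of the counting is not given in the sources used here. Psd moved the other way, with 116 and 118 CPM with FGF2 and 224 and 232 CPM without.

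Set side by side per kilobase of exon, the 5 subunits summed to 51.2 and 46.1 CPM per kb with FGF2 and 19.7 and 19.9 without. Rela held 46.4% and 45.2% of that sum with FGF2 and 59.7% and 55.0% without. Nfkb2 held 15.0% and 15.3% with FGF2 and 8.53% and 9.49% without, and Relb 13.2% and 13.9% with and 7.08% and 9.29% without. These shares depend on the length scaling, since without it Nfkb1 was the largest with FGF2, at 48.7% of the summed counts, and Rela held 25.3%. Per kilobase, the share of Rela was lower, and the shares of Nfkb2 and Relb were higher, in both libraries with FGF2 than in either without. Nfkb1 stayed between 21.4% and 22.5% in all 4 libraries, and Rel between 2.71% and 4.84% with overlapping groups. The level of Relb relative to Rela went from 0.119 and 0.169 without FGF2 to 0.284 and 0.308 with it, and that of Nfkb2 relative to Nfkb1 from 0.388 and 0.444 to 0.665 and 0.683.

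**Figure D3:**
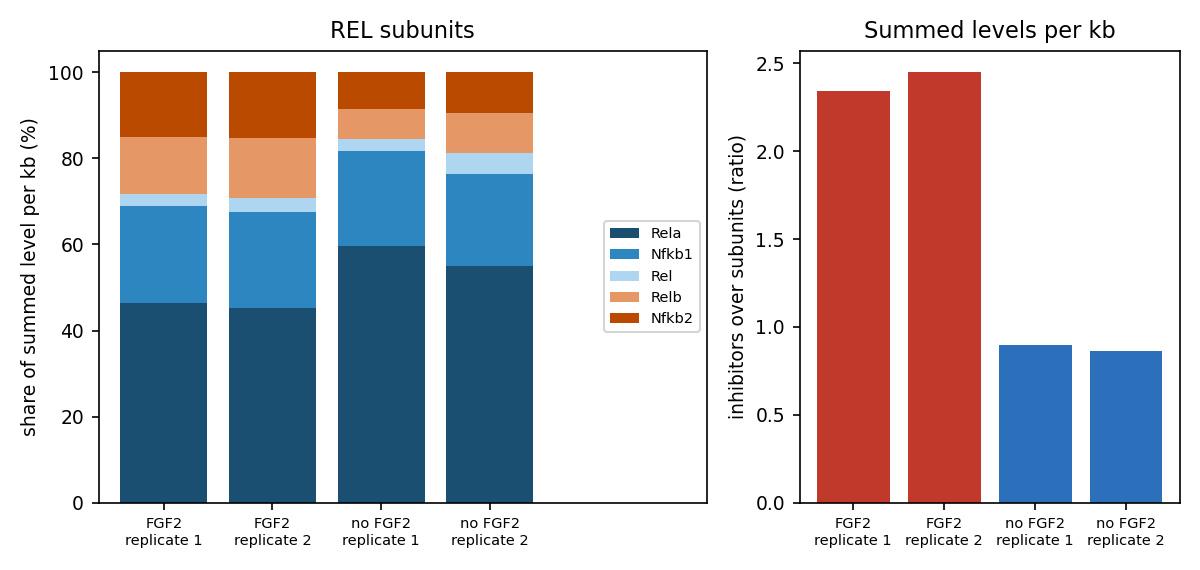
Left, share of each REL subunit in the summed subunit level per kb of exon, as stacked bars in each library (%). Right, ratio of the summed inhibitor level to the summed subunit level per kb in each library, which was 2.34 and 2.45 with FGF2 (red) and 0.896 and 0.863 without (blue). The ratio is of RNA levels and not a balance of inhibitor and subunit proteins, since Nfkbiz, Bcl3 and Tnfaip3 are summed among the inhibitors.

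Nfkbia (ENSMUSG00000021025) encodes IkB alpha, the classical inhibitor that holds Rela dimers in the cytoplasm, and lies on the minus strand of chromosome 12 from 55489410 to 55492647. It had 121 and 114 CPM with FGF2 and 20.8 and 19.7 CPM without, 5.79-fold (log2 fold change 2.53, standard error 0.09). Per kilobase it was the most abundant member with FGF2, at 72.8 ± 2.90 CPM per kb (SD, n = 2), and Rela followed at 22.3 ± 2.12 (SD, n = 2). Without FGF2 the same genes had 12.6 ± 0.472 and 11.3 ± 0.563 CPM per kb (SD, n = 2), which lie within 2 combined SDs of each other. The ratio of Nfkbia to Rela per kilobase was 3.15 and 3.40 with FGF2 and 1.10 and 1.12 without.

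Nfkbie (ENSMUSG00000023947) encodes IkB epsilon, another cytoplasmic inhibitor, on the plus strand of chromosome 17 from 45555703 to 45563169. Its level was 32.0 and 28.6 CPM with FGF2 and 4.08 and 3.22 CPM without, 8.29-fold (log2 fold change 3.05, standard error 0.18). The match to the kB consensus printed above stands 106 bases before its RefSeq start.

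Nfkbiz and Bcl3 encode atypical IkB proteins, which act in the nucleus and can raise as well as lower transcription by NF-kB. Nfkbiz (ENSMUSG00000035356), on the minus strand of chromosome 16 from 55811375 to 55838899, had 106 and 104 CPM with FGF2 and 12.6 and 14.9 CPM without, 7.63-fold (log2 fold change 2.93, standard error 0.10). Bcl3 (ENSMUSG00000053175), on the minus strand of chromosome 7 from 19808462 to 19822770, had 116 and 90 counts with FGF2 and 0 and 2 counts without. It was thus the member nearest to absence without FGF2. Over the pooled libraries its rate was 115 times higher with FGF2, a ratio that rests on 2 counts without FGF2. No interval is given for it, since Bcl3 was chosen on this contrast. The fitted log2 fold change of 6.69 is not a firm size, since it was 5.84 with a prior count of 1, 5.79 without no FGF2 replicate 1 and 9.74 without no FGF2 replicate 2.

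Tnfaip3 (ENSMUSG00000019850), on the minus strand of chromosome 10 from 19000910 to 19015657, encodes a ubiquitin-editing enzyme that shuts off signalling upstream of IKK. Its level was 59.3 and 59.4 CPM with FGF2 and 6.27 and 5.99 CPM without, 9.69-fold (log2 fold change 3.27, standard error 0.13). After Bcl3 it had the largest change of the 10, yet Tnfaip3 and Nfkbie, and Nfkbie and Nfkbiz, were not separated by more than 2 combined standard errors. Nfkbia, the inhibitor that changed least, was above Nfkb2, the subunit that changed most, by 0.49 on the log2 scale with a combined standard error of 0.17. DESeq2 gave Nfkbia 2.53 and Nfkb2 2.04 with larger standard errors, 0.13 and 0.22. As the members were chosen on these values, no separation is inferred. Summed per kilobase, the 5 inhibitors had 120 and 113 CPM per kb with FGF2 and 17.6 and 17.2 without.

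**Figure D4:**
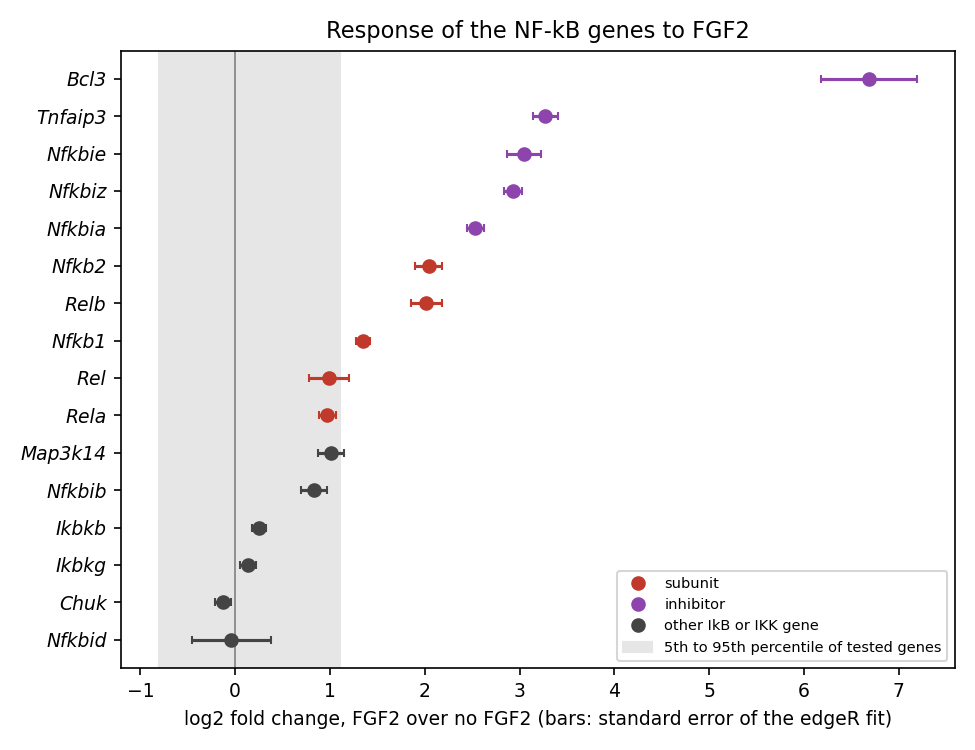
Log2 fold change of FGF2 over no FGF2 for the 10 members and for 6 related genes, with the standard error of the edgeR fit as bars and the 5th to 95th percentile of all tested genes in grey (-0.80 to 1.10). The 5 inhibitors among the members (purple) lie to the right of the 5 subunits (red). The IkB genes Nfkbib and Nfkbid lie to the left of the subunits, though the bar of Nfkbib overlaps those of Rela and Rel. Chuk, Ikbkg and Nfkbid lie near 0.

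The other genes of the pathway, 92 in 8 lists drawn up by function, were measured in the same fit. Of the 79 that passed the filter, 50 were called higher and 3 lower (edgeR quasi-likelihood test, Benjamini-Hochberg adjustment over 17144 genes), beside 20.7% and 19.9% of all tested genes, and their median log2 fold change was 0.57. The lists were written with results of these data known, so the count is a description. Of the 50, 3 ligand genes and 7 target genes reached the count limit of the filter only in the libraries with FGF2. They could hardly have been called lower. With DESeq2, 42 were called higher and 1 lower, beside 12% and 11.2% of the 17252 genes for which it gave an adjusted p.

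The remaining IkB genes had smaller fold changes than Nfkbia and than any of the subunits. Nfkbib lay close to Rela, however, and with a no FGF2 library left out it was above Rel or Rela. Nfkbib, which encodes IkB beta, had 24.7 and 24.2 CPM with FGF2 and 12.6 and 14.8 CPM without. It rose by 0.83 on the log2 scale (standard error 0.14, edgeR adjusted p = 2.3e-08), so the ratio of Nfkbia to Nfkbib per kilobase was 6.57 and 6.34 with FGF2 and 2.22 and 1.79 without. Nfkbid, an atypical nuclear IkB gene, was counted 23 and 20 times with FGF2 and 18 and 32 times without. The groups overlapped, and the log2 fold change was -0.04 (standard error 0.41, edgeR adjusted p = 0.96). Its sign turned with limma-voom and without single libraries.

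Of the 10 genes of IKK and its upstream kinases, 5 were called higher (Ikbkb, Map3k14, Map3k7, Tbk1 and Ikbke) and 0 lower, with a median log2 fold change of 0.19. Map3k14, whose product NIK drives the non-canonical branch, had 25.6 and 29.3 CPM with FGF2 and 12.1 and 15.1 CPM without (log2 fold change 1.01, standard error 0.14, edgeR adjusted p = 1.2e-12). Ikbkb, the catalytic subunit of the canonical branch, had 91.6 and 90.4 CPM with FGF2 and 76.8 and 75.7 CPM without (log2 fold change 0.25, standard error 0.07, edgeR adjusted p = 0.0015), a call that was lost with DESeq2. The other IKK subunits were not called. Chuk had 51.7 and 63.1 CPM with FGF2 and 65.9 and 60.1 CPM without (edgeR adjusted p = 0.20), and without FGF2 replicate 2 it was called lower, with a log2 fold change of -0.29. Ikbkg, the regulatory subunit, had 55.1 and 56.6 CPM with FGF2 and 54.6 and 47.1 CPM without (edgeR adjusted p = 0.21). None of the 4 genes of the ligase that ubiquitinates IkB proteins (Btrc, Fbxw11, Cul1 and Rbx1) was called, and their log2 fold changes ran from -0.11 to 0.05.

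**Figure D5:**
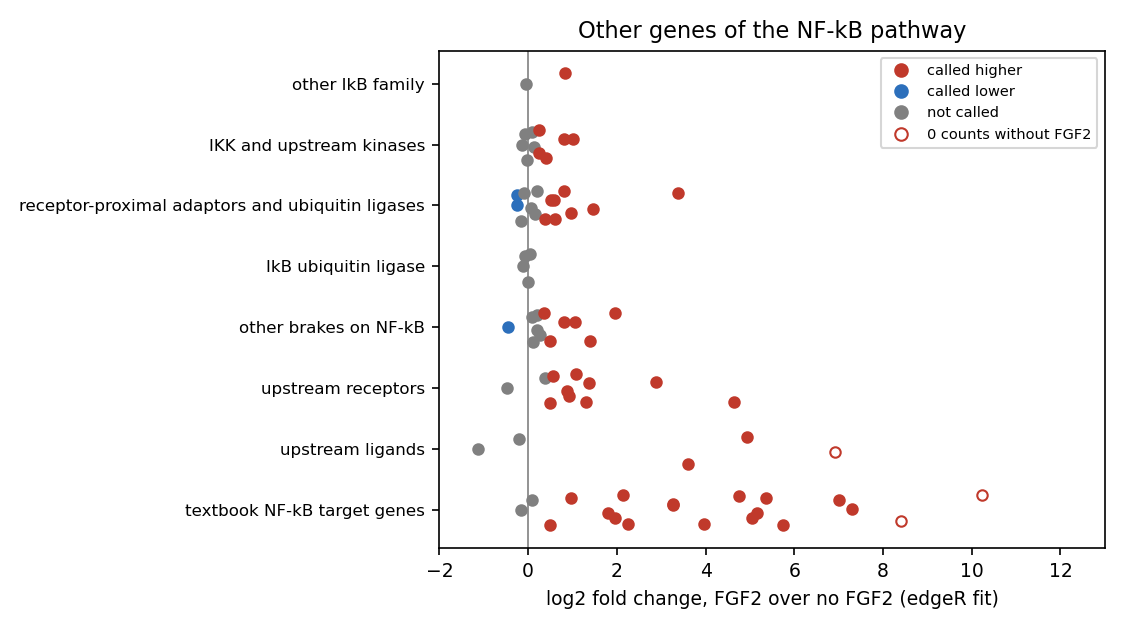
Log2 fold change of the tested genes of the 8 other pathway lists (1 point a gene, 79 points, position within a row without meaning), red where called higher, blue where called lower and grey where not called. Targets and ligands reach the largest values, the IkB ligase genes stay near 0, and open points had 0 counts without FGF2, so that their position depends on the prior count.

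Among the 15 receptor-proximal adaptors and ubiquitin ligases, 8 were called higher and 2 lower (Traf3 and Rbck1). Birc3, which encodes a ubiquitin ligase of the TNF receptor complex, had 12.8 and 13.9 CPM with FGF2 and 1.52 and 1.01 CPM without (log2 fold change 3.39, standard error 0.28, edgeR adjusted p = 5e-32). Traf3, which helps to keep NIK low, fell by 0.26 on the log2 scale (standard error 0.06, edgeR adjusted p = 0.0002), from 124 and 122 CPM without FGF2 to 101 and 104 CPM with it.

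Of the 13 other brakes on the pathway, 12 were tested, 6 were called higher and 1 lower. Zc3h12a, whose product degrades inflammatory transcripts, had 9.23 and 10.9 CPM with FGF2 and 2.85 and 2.30 CPM without (log2 fold change 1.96, standard error 0.26, edgeR adjusted p = 6.5e-13). Nkiras1, which encodes a small GTPase-like protein that binds IkB, had 14.8 and 14.8 CPM with FGF2 and 21.5 and 19.0 CPM without. Its log2 fold change was -0.45 (standard error 0.15, edgeR adjusted p = 0.0066), and the call was lost with DESeq2 and without no FGF2 replicate 1. Cyld, which encodes another deubiquitinase of the pathway, was not called.

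Upstream of the members, 11 of 14 receptor genes were tested and 9 were called higher, with 0 lower and a median log2 fold change of 0.92. Tlr2, a receptor for bacterial lipoproteins, had 90.4 and 96.5 CPM with FGF2 and 4.18 and 3.32 CPM without (log2 fold change 4.64, standard error 0.13, edgeR adjusted p = 1.9e-271). Of 9 ligand genes 5 were tested and 3, namely Tnf, Il1a and Il1b, were called higher, at low counts. These 3 reached the count limit of the filter only in the libraries with FGF2, so they could hardly have been called in the other direction. Il1a had 13 and 15 counts with FGF2 and 0 in both libraries without. With 3 counts over the group in place of 0 it was 10.4-fold higher, and the exact 95% counting interval of the ratio began at 7.92. Il1b had 24 counts in the pooled libraries with FGF2 and 2 without, a ratio of 13.4 with an exact 95% counting interval of 3.32 to 117, and Tnf had 115 and 4 (ratio 32.0, interval 12.2 to 120). Lta was at 0 in all libraries. Over the tested ligands the median log2 fold change was 3.60, and 3.38 with 3 counts over the group in place of 0 for Il1a.

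Of 25 textbook target genes 20 were tested, 18 were called higher and 0 lower, and the median log2 fold change was 3.62. It was the same with 3 counts over the group in place of 0 for the genes at 0 without FGF2. Of the 18, 7 (Cxcl1, Cxcl2, Ccl2, Ccl7, Il6, Ptgs2 and Nos2) reached the count limit of the filter only in the libraries with FGF2, and 11 of the other 13 tested targets were called higher. Cxcl2, a chemokine that attracts neutrophils, had 139 and 145 counts with FGF2 and 0 in both libraries without. With 3 counts over the group in place of 0 it was 106-fold higher, and the exact 95% counting interval of the ratio began at 85.3. Nos2, the inducible nitric oxide synthase, was counted 50 and 29 times with FGF2 and 0 times in both libraries without. It was 29.4-fold higher on the same scale, with an interval that began at 23.3. Ccl2, which attracts monocytes, was counted 413 and 465 times with FGF2 and 5 times and 1 time without (log2 fold change 7.30, standard error 0.26). The pooled ratio of Ccl2 was 163 with an exact 95% counting interval of 74.6 to 446, and its log2 fold change was 8.79 without no FGF2 replicate 1 and 6.57 without no FGF2 replicate 2. Bcl2l1, which protects cells from death, and Sod2, the mitochondrial superoxide dismutase, were tested and not called. A kB consensus match stood in 9 of the 18 target genes with a promoter window, beside 9.55% of all genes. Bcl2l1 and Sod2 were among the 9, as was Ccl20, which was not tested. The match also stood in 4 of 9 other brakes, 3 of 12 receptors, 2 of 13 adaptors and ligases and 1 of 8 ligands. It stood in 1 of 8 genes of IKK and its upstream kinases, 1 of the 2 other IkB genes and 0 of 3 genes of the IkB ligase. Among these were Nfkbid, which was not called, and Traf3, which was called lower. Whether a match goes with a rise was not tested. Of 8 reference genes 3 were called lower and 0 higher, with a median log2 fold change of -0.07.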

How the data were processed

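The authors mapped reads to mm10 with HISAT2 2.1.0, kept a mapping quality of at least 20 with Samtools, counted with HTSeq 0.11.2 and deposited the raw counts per gene (versions from the submitters' processing notes). The annotation release and strand setting are not given in the sources used here. The 5 tally lines were left out of totals (reads in no feature, 43.2% to 45.9%). Of 55421 genes, 55240 were matched to GENCODE M21, which gave names, positions and exonic lengths. The length of a gene is that of its exons merged over all annotated transcripts, and may exceed that of the transcripts present.

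The 4 libraries were compared with edgeR 4.0.16 in R 4.3.3 (TMM, expression filter, robust quasi-likelihood test, Benjamini-Hochberg adjustment), and CPM use the TMM factors. DESeq2 1.42.0, the tool of the study's methods, and limma-voom (limma 3.58.1), other scalings and filters, a prior count of 1, a replicate block and each library left out were alternatives. Counts of the libraries of a group differed by more than sampling noise (chi-square per degree of freedom 2.28 and 1.76). The longest transcript of each member was compared with those of other genes by BLAST 2.17.0. Apart from the antisense neighbours of Nfkb2 none of these shared 100 bases at 95% identity. By position, exons of Bcl3 also overlap 161 bases of Gm16175 on the opposite strand, which had 0 counts in all libraries.

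The members and lists were chosen with earlier results of these data known. Named genes are the members, Nfkbib, Nfkbid, Chuk, Ikbkb, Ikbkg and Map3k14, the called gene with the largest rise and fall of each other list, and the 3 called targets with the largest rise. Other genes were named after their values were seen. Planned protein features were not computed.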

Additional observations from a re-analysis of the deposited data

How the results depend on the processing

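Each of the 10 members kept a higher level with FGF2 in all alternatives that gave a value (13 for each, 12 for Bcl3, which has none with at least 10 counts in every library), which is no sign of stability, since they were chosen on this contrast. Rel was not called without no FGF2 replicate 1. Over all genes, DESeq2 called 2068 higher and 1939 lower. Of the other pathway genes, 1 was called lower with DESeq2, and 1 to 4 were when 1 library was left out. The log2 fold change of Nfkbid was 0.003 with limma-voom and between -0.38 and 0.41 without 1 library. Bcl3 ranged from 5.79 to 9.74 without 1 library. With no length scaling the shares in the summed subunit counts with FGF2 were 48.7% for Nfkb1 and 25.3% for Rela. The median log2 fold change of all genes moved most with upper quartile scaling, by -0.026. Deviations of libraries with the same number correlated at 0.008, so the numbers are not shown to pair libraries. With a replicate block 6814 genes were called in place of 6949, and 50 other pathway genes were called higher and 3 lower. A lone library was assumed to vary like the other group. The counts of Bcl3, Il1a, Il1b, Il6, Cxcl2 and Nos2 without FGF2 are at the limit of this depth, and those of Tnf are few.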
